A study of Homo sapiens with 12 samples.

Results

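The m6A-seq comparison of HEK293T cells given TRMT10A siRNA or control siRNA is described here across all differential m6A peaks that the authors listed, 2023 peaks under 1786 gene names. No peak was left out of the set. The comparison draws on 8 of the 12 samples of the series, the m6A pulldown and the matching input under TRMT10A siRNA and the same under control siRNA, with 2 samples in each of these 4 groups. All groups are of HEK293T, an established line from human embryonic kidney with the SV40 large T antigen. Polyadenylated RNA was freed of ribosomal RNA, broken by sonication and pulled down with an antibody kit against m6A, and strand-specific libraries were sequenced. The authors' deposited table gives 1 log2 fold change between conditions and 1 fold enrichment of pulldown over input per peak, with no value for a single library. Depth per sample is therefore unknown, the spread between the replicates cannot be measured, and no test over samples was possible. Nothing in the labels says whether the replicates came from separate cultures. No expression level is given either, so neither the knockdown nor the cell line could be checked against its markers. The target TRMT10A had 1 listed peak (1.48 in the authors' deposited table), which is a difference in m6A signal and checks no level.

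N6-methyladenosine (m6A) is laid down on mRNA in the nucleus by a methyltransferase complex built around METTL3 and METTL14, mostly at adenosines in a GAC or AAC context and most densely near stop codons and in last exons. FTO and ALKBH5 remove the methyl group, and YTH domain proteins bind it and influence decay, splicing and translation of the mRNA. Antibodies against m6A also bind m6Am, a related base at the first transcribed position of many mRNAs, so the pulldown does not separate these modifications at a 5′ end. TRMT10A is a methyltransferase that forms 1-methylguanosine in tRNAs.

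Positive values made up 66.5% of the listed peaks and negative values 33.5%, and every share of members below is to be read beside these. Which condition is the numerator is not named in the column headers. A positive value means more in the knockdown only where treated was divided by control. All signs are given as deposited. Peaks of at least 1 on the log2 scale were 18.6% of the list and peaks of at most -1 were 4.15%.

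Sequences are shown for gene starts, where most peaks were positive. A start sequence of a protein-coding gene was at hand for 1167 listed peaks, so starts of other listed genes are not counted here. Of these peaks, 238 covered at least 30 of the first 50 bases after that start, and 209 of the 238 were positive (87.8%, 95% Wilson interval 83.0 to 91.4%, counting error only). The RefSeq start is that of 1 transcript, and for 12 of the 238 the peak lay more than 100 bases from the 5′ end of the whole gene span. The motif GGAC, a frequent m6A context, was searched on the transcript strand in the first 50 bases. It was present at 60 of the 238 starts (25.2%, interval 20.1 to 31.1%) and at 19.7% of the 11786 protein-coding starts with a sequence. It was present at 52 of 209 positive starts (24.9%) and 8 of 29 negative starts (27.6%), and the intervals of these shares overlapped. The first match lay inside the peak for 56 of the 60. That count follows largely from the choice of peaks, which had to cover at least 30 of the 50 bases searched. A match is a description of the letters and not a methylated site. For the 6 positive and 3 negative starts with a match and the lowest adjusted p, 30 bases around the match are printed from RefSeq (GRCh38.p14, transcript strand, 5′ to 3′), with GGAC in capitals. The marked letters lie inside the listed peak for each of the 9 except HNRNPU, whose peak begins downstream of them.
OGFR: cgccgccgagcatGGACgaccccgactgcg
YBX1: tagcgggagcggagagcGGACcccagagag
HNRNPU: gaGGACgttgcgtgctcgctcgcgccaggc
POLR2L: agtctgGGACgcgccgccgccatgatcatc
POP7: cgcagcccgttcaGGACcccggcgcgggca
C19orf53: tccgctgcgtgccGGACcatggcgcagggg
CKS2: tgttgcctgggctGGACgtggttttgtctg
KLHL9: ggtatcctgGGACtaggcttttccggaagg
TRIAP1: tgtgggggaggcatgcacGGACatgaagcg

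The windows lie at chr20:62804849-62804878 (OGFR, an opioid growth factor receptor), chr1:42682438-42682467 (YBX1, an RNA-binding cold shock protein) and chr1:244864514-244864543 (HNRNPU, a nuclear RNA-binding scaffold protein). In the authors' deposited table their peaks had log2 fold changes of 1.32, 1.16 and 1.46. The windows of POLR2L, an RNA polymerase subunit, POP7, a subunit of RNase P and RNase MRP, and C19orf53 lie at chr11:842500-842529, chr7:100706125-100706154 and chr19:13774460-13774489, with values of 0.82, 0.73 and 0.56 in the authors' deposited table. The negative starts were of CKS2, a cyclin-dependent kinase subunit, KLHL9, a substrate adaptor of a cullin ubiquitin ligase, and TRIAP1, a mitochondrial lipid transfer factor. They lie at chr9:89311212-89311241, chr9:21335375-21335404 and chr12:120446335-120446364, and the authors' deposited table gave -0.25, -0.21 and -0.25. The negative values were thus smaller in size than those of all 6 positive peaks. Each value belongs to a whole peak and not to the start alone. The OGFR, C19orf53 and POLR2L peaks had their middle at 86.8%, 86.4% and 84.4% of the gene span, TRIAP1 and POP7 at 69.0% and 68.0%. Those of YBX1, HNRNPU, CKS2 and KLHL9 had it in the first 25%. Adenosine was the first base of 55.9% of the starts under a peak (133 of 238, interval 49.5 to 62.0%). Of all 11786 starts it was the first base of 51.5%, which lies within that interval.

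The sign of a peak went with its place along the gene. Each peak was placed by its middle exonic base within the RefSeq span of its gene, introns included, from the 5′ end to the 3′ end, which was possible for 1991 of 2023 peaks. In the first 25% of the span 370 of 429 peaks were positive (86.2%, interval 82.7 to 89.2%). From 25 to 50% of the span 73.0% of 211 peaks were positive, and from 50 to 75% it was 69.0% of 323. In the last 25% of the span 581 of 1028 were positive (56.5%, interval 53.5 to 59.5%). The intervals at both ends of the gene did not overlap. They cover counting error only, and peaks of these pooled lists are not replicates.

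Finer steps gave the same picture at both ends. In the first 10% of the gene span 254 of 280 peaks were positive (90.7%), and their median value in the authors' deposited table was 0.95 on the log2 scale. The last 10% held 375 positive and 325 negative peaks (53.6% positive), with a median of 0.27. Between them the share ran from 79.4% at 10 to 20% of the span to 63.2% at 80 to 90%, not in even steps and with overlapping intervals between neighbours. The thinnest step, 30 to 40% of the span, held 72 peaks.

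**Figure D1:**
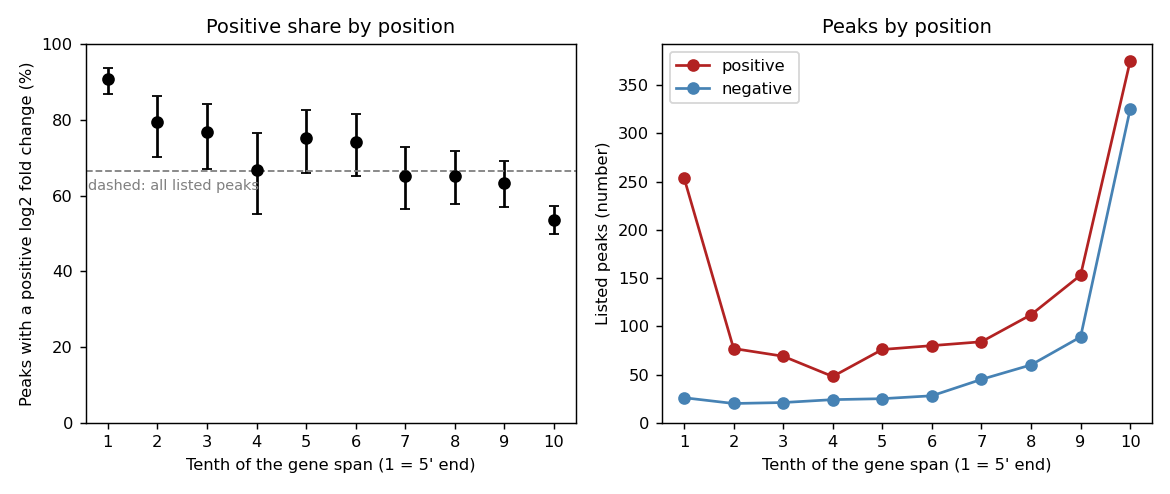
Left, share of listed peaks with a positive log2 fold change (%) in each step of 10% of the gene span from the 5′ end, with 95% Wilson intervals as bars (counting error only) and the share over all listed peaks as a dashed line. Right, number of positive and negative peaks per step. The first step holds 254 positive and 26 negative peaks, the last 375 and 325.

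The decline along the gene was present in every subset of peaks examined. Among peaks with 1 exon block the positive share went from 89.9% in the first 25% of the span to 44.9% in the last 25%, where the authors' deposited table had a median value of -0.31. Among peaks of 2 or more blocks it went from 84.1% to 68.0%. Peaks with a fold enrichment below the median of 4.91 went from 88.2% to 57.3%, and those at or above it from 83.1% to 55.9%. Narrow peaks, below the median width of 570 bases, went from 89.2% to 49.5%, and wide peaks from 80.1% to 62.5%. Among peaks of 1 or more in absolute log2 value the shares were 94.8% of 174 and 69.6% of 168. Genes with a single listed peak went from 84.4% to 54.0%, so the decline did not rest on genes with several peaks. Over the 1991 peaks the Spearman correlation of position with log2 fold change was -0.31, given as a description, since the peaks share libraries and genes.

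Distance to the annotated ends was counted apart from the relative position. Of 435 peaks reaching within 100 bases of the 5′ end, 381 were positive (87.6%, interval 84.2 to 90.4%). Of 308 reaching within 100 bases of the 3′ end, 213 were positive (69.2%). Both sets include 56 peaks that reached both ends, of which 51 were positive. Peaks near neither end numbered 1304, of which 60.2% were positive. Negative peaks lay later in the gene, with a median position of 89.4% of the span (interval 86.5 to 91.5%) against 68.1% (64.0 to 71.2%) for positive peaks.

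Genes with several listed peaks allowed the same comparison within a transcript. A single peak was listed for 1570 genes and 2 or more for 216, which together held 453 peaks. Of the 213 such genes on 1 chromosome and strand, 141 were positive at every listed peak, 25 were negative at every peak, and 47 held both signs. The peak nearest the 5′ end had the larger value in 151 genes (70.9%, interval 64.5 to 76.6%) and the peak nearest the 3′ end in 61, with 1 gene equal. Their medians were 0.79 and 0.46 in the authors' deposited table, and the median of the difference within a gene was 0.31 over a median distance of 6324 bases.

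Where the outermost peaks differed in sign, the order was mostly 1 way. Of 46 such genes, 42 were positive at the 5′ peak and negative at the 3′ peak (91.3%, interval 79.7 to 96.6%). The other 4 were CKMT1B, SMIM11, WHSC1 (NSD2) and SRRM2, named here after their values were seen. CKMT1B and SMIM11 have near-identical copies, and 1 of the SMIM11 peaks lies outside the RefSeq span of that gene, so both are uncertain. At SMIM11 the authors' deposited table gave -3.36 and then 2.47. SMN1 and SMN2, near-identical copies that share 1 peak position of 8.83 in the authors' deposited table, are among the 42, and their outermost peaks lie in different copies.

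Genes with the widest gaps between peaks of opposite sign are given next. EXOSC6, a subunit of the RNA exosome, had 3.20 at 2.2% of its span and -0.63 at 30.8% in the authors' deposited table. BAZ1A, a subunit of ISWI chromatin remodelling complexes, had 1.63 at 0.1% of its span and -0.90 at 65.7% there. At GATC, a subunit of the mitochondrial glutamyl-tRNA amidotransferase, the authors' deposited table gave 1.85 near the start and -0.66 at 80.0% of the span. All 3 had the positive peak within the first 2.2% of the gene. NKAP, a transcription and splicing regulator, had 1.80 and -0.46 in the authors' deposited table, in the same order. For STX6, a syntaxin of the trans-Golgi network, the authors' deposited table held 0.44 over 7 exon blocks and -1.25 in a 1-block peak behind them. ZNF74, a zinc finger protein, had 3 peaks whose values in the authors' deposited table went from 1.05 through 0.57 to -0.79 along the last part of the gene.

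**Figure D2:**
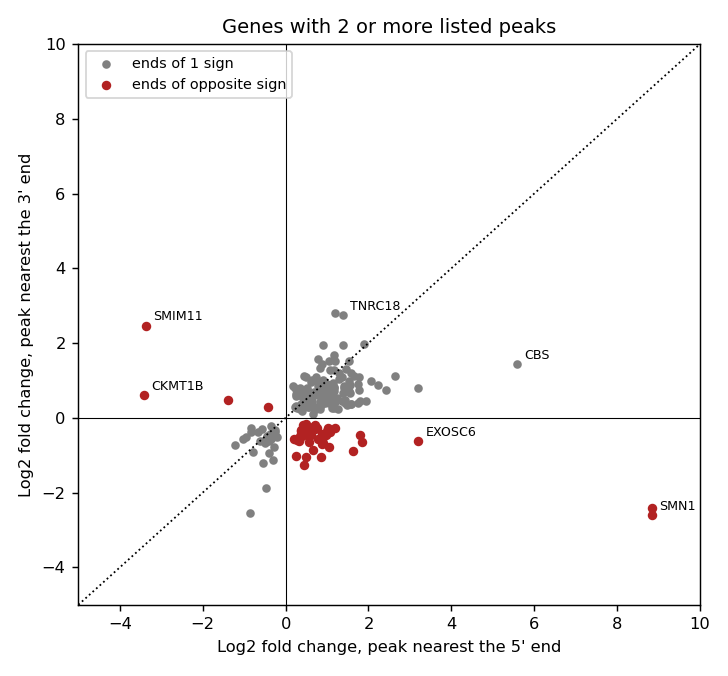
Each point is 1 of the 213 genes with 2 or more listed peaks on 1 chromosome and strand, with the log2 fold change of its 5′-most peak on the x axis and of its 3′-most peak on the y axis. Red points mark the 46 genes whose end peaks differ in sign, of which 42 lie at the lower right. The dotted line marks equal values. SMN2 lies beside SMN1, and CBS at 5.58 and 1.44 has a near-identical second copy.

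Large values of 1 sign at both peaks were all positive in the genes drawn by size. HNRNPU had 1.46 and 1.32 in the authors' deposited table, both within the first 4.7% of its span. MAP3K10, a kinase upstream of JNK, had 1.38 near its start and 1.96 near its end there. At PLEC, the cytoskeletal linker plectin, the authors' deposited table gave 1.20 over 4229 bases and 1.52 over 691 bases. TNRC18, a chromatin-associated protein, had 1.39 at 45.3% of its span and 2.75 at 94.3% in the authors' deposited table. PWP2 and RRP7A, both factors of ribosomal small subunit assembly, had 1.89 and 1.98, and 1.29 and 1.19, in the authors' deposited table. CAPN15, a calpain-family protease, had 1.57 and 1.19 there, and NAT8L, which makes N-acetylaspartate, 1.53 and 1.51. MAP3K10, PLEC, PWP2 and TNRC18 had the larger value downstream, against the more frequent order.

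The genes HDLBP, MYH9 and XIST had 5 listed peaks each, and each kept a single sign. HDLBP encodes vigilin, an RNA-binding protein of many KH domains. From 5′ to 3′ its values in the authors' deposited table were 0.57, 0.25, 0.51, 0.47 and 0.30, with fold enrichments between 1.15 and 1.90. MYH9 encodes the heavy chain of nonmuscle myosin IIA. Its values in the authors' deposited table were 0.85, 0.51, 0.70, 1.39 and 0.74, all between 83.4% and 98.8% of the gene span. XIST, the long noncoding RNA of X inactivation, is a well-studied m6A-bearing RNA, and its values in the authors' deposited table were -1.02, -0.29, -0.37, -0.37 and -0.55. The second XIST peak was 2040 bases wide with a fold enrichment of 16.7 in the authors' deposited table, and the others had at most 2.67. None of the 3 genes declined steadily from 5′ to 3′, and XIST was negative from its first peak at 0.4% of the span.

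**Figure D3:**
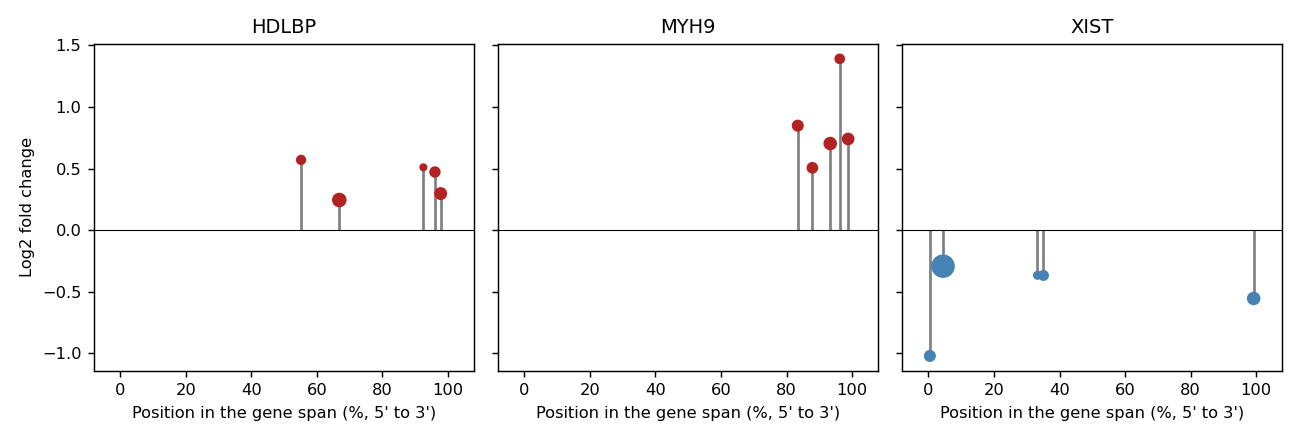
Log2 fold change of the 5 listed peaks of HDLBP, MYH9 and XIST against their position in the gene span (%, from the 5′ end). Point area grows with summed exon width, red is positive and blue is negative. All peaks of HDLBP and MYH9 are positive and all of XIST are negative.

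Of the 10 genes drawn for large positive values, which leave out those already described in an earlier account, 7 had the peak in the first 10% of the gene span. PDE3B, a cyclic nucleotide phosphodiesterase, had 3.62 and an enrichment of 16.4 at its start in the authors' deposited table. PFN1, the actin monomer binder profilin, had 3.23 there in a 60-base peak at 0.2% of the span. C19orf43 (TRIR), an exoribonuclease, had 3.19 with the log10 of the adjusted p at -24.2 in the authors' deposited table, the lowest among these genes. TRAPPC12, a vesicle tethering subunit, had 2.80, PVRL2 (NECTIN2), a cell adhesion receptor, 2.64, and FAM110A 2.61 in the authors' deposited table. POLR2J4 had 2.75 there, but it is a near copy of POLR2J, whose own peak had -1.80, and reads of such copies may have been split between them. EXOSC6 and TNRC18, with values given above, are also among the 10.

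Large negative values were fewer, and 4 of the 10 drawn lay in the last 10% of the gene span. Those were RASGRF2, a Ras guanine nucleotide exchange factor (-2.71), ZBTB38, a methyl-CpG binding zinc finger protein (-2.21), BBS5 of the ciliary BBSome (-1.93) and RALGAPA2, a RAL GTPase activator (-1.90), in the authors' deposited table. ZSWIM3 had -2.93 and C7orf13 (RNF32-DT) -2.39 there, both in the first 1% of the span. N4BP2, a DNA-nicking and kinase protein, had -2.54, and DISP2, a Dispatched family membrane protein, -2.29, both near the middle of the gene in the authors' deposited table. SMIM11 (-3.36) and U2AF1, a splicing factor subunit (-2.86), have near-identical copies, and these peaks on chromosome 21 lie outside the RefSeq span of the gene. For 8 of these 10 genes the log10 of the adjusted p in the authors' deposited table was above -2, close to the list's limit of 0.05. The exceptions were U2AF1 (-16.2) and RALGAPA2 (-2.35). Of the 10 genes drawn for large positive values 3 were also above -2, PDE3B (-1.66), TRAPPC12 (-1.59) and FAM110A (-1.32).

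The peaks drawn for the lowest differential p, leaving out genes already described in an earlier account, were of moderate change. TUBB, a beta tubulin, had 0.62 on the log2 scale and a log10 adjusted p of -278 in the authors' deposited table, with a fold enrichment of only 1.62. JUN, a subunit of AP-1, had 0.78 and -228 there, with an enrichment of 30.5. Its 2724-base peak covered the start and had its middle at 39.8% of the gene span. HSPA1B, an inducible HSP70 gene, had 1.03 and -179 in the authors' deposited table. Its near-identical copy HSPA1A, not drawn by this rule, had 1.29 and -24.4 there. NCL, nucleolin, had 0.49 (-106) and PPIB, a cyclophilin of the endoplasmic reticulum, 0.48 (-89.1) in the authors' deposited table. NCL is also among the genes with both signs, with -0.16 at its other peak. On the negative side XIST and its antisense partner TSIX led, with log10 adjusted p of -51.5 and -53.5 at the place they share in the authors' deposited table.

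Gene families were read from 42 lists defined by gene symbols, of which 41 had at least 1 listed peak, in 438 genes. The list of Notch and Hedgehog genes had none for its 38 members. Of the 26 lists with at least 10 peaks, 13 had a positive share above the 66.5% of all peaks and 13 below it, which is no departure of the lists as a whole. Lists are small, their intervals wide, and no list is called particular here. Some large values named from them lie close to the adjusted p limit, as for FOXA1 (log10 of -1.32), MAN1A1 (-1.36) and KLHL7 (-1.58). Across these 26 lists the positive share did not follow the median position of the peaks (Spearman correlation -0.04).

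**Figure D4:**
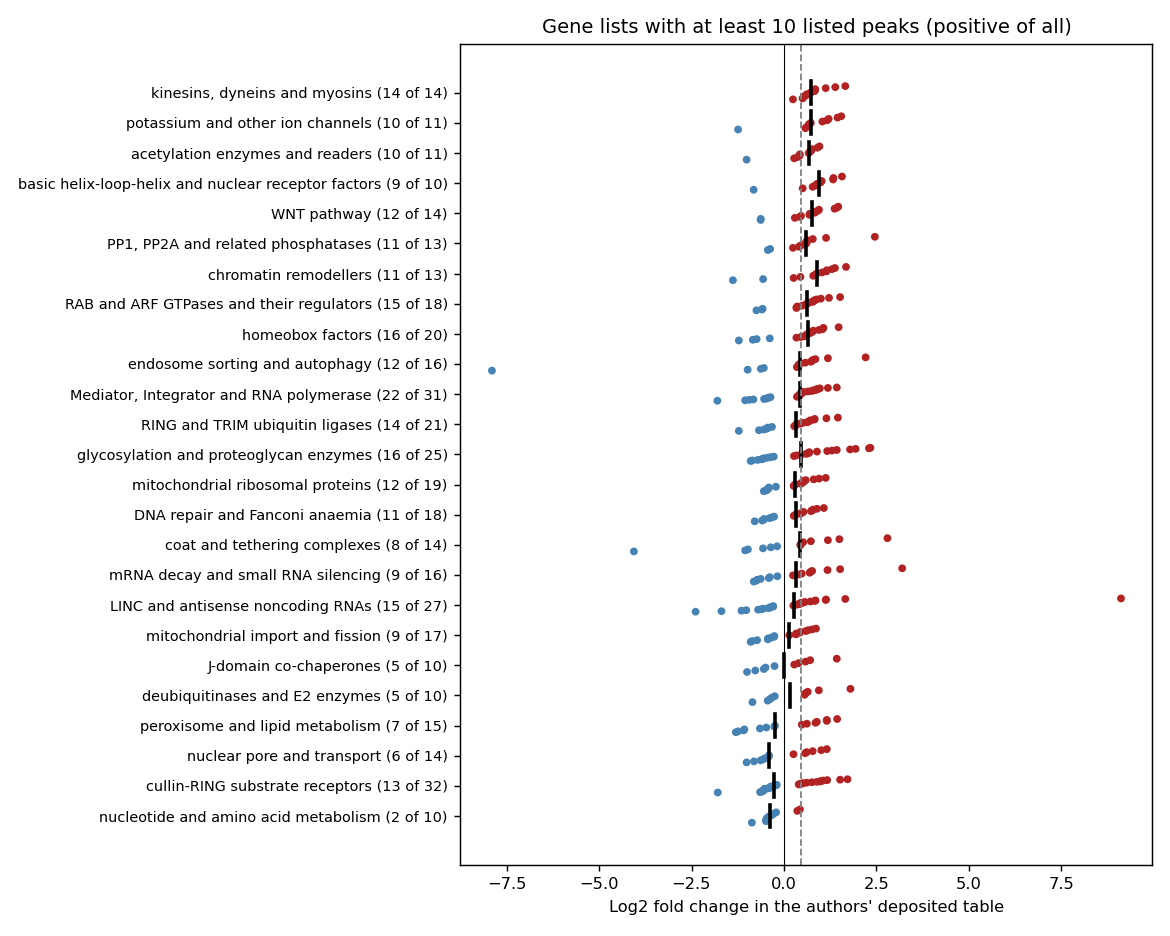
Log2 fold change of each listed peak in 25 of the gene lists with at least 10 peaks, ordered by positive share, with the number of positive peaks of all in brackets. Black bars are list medians and the dashed line is the median of all listed peaks, 0.46. Points beyond 4 in size are WASH1 (-7.90), TRAPPC4 (-4.06) and LINC01123 (9.12).

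Chromatin and transcription lists stood mostly above the share of all peaks, but the 95% Wilson interval of each list included that share of 66.5%. Chromatin remodellers had 11 of 13 peaks positive with a median of 0.89 in the authors' deposited table. Among them SMARCA5, the ISWI ATPase, had 1.68 and 1.16, MTA2 of the NuRD complex 1.38, and CHD3, another NuRD ATPase, 1.30, while ARID2, a PBAF subunit, had -1.38 near its 3′ end in the authors' deposited table. CHD4 held both signs, 0.79 and then -0.56. Acetylation enzymes and readers had 10 of 11 positive. The acetyltransferases EP300 (0.37) and CREBBP (0.75), the corepressor SIN3B (0.96) and all 3 peaks of the bromodomain protein BRD2 (0.28, 0.42 and 0.43) had positive values, and BRD3 (-1.01) a negative one, in the authors' deposited table. The Polycomb group was mixed. Its CBX2, CBX6 and CBX8, readers of methylated histone H3, were positive (0.39, 1.27 and 0.57), whereas SUZ12 (-1.28), EZH1 (-0.77) and MTF2 (-0.32), of the complex that methylates it, were negative in the authors' deposited table.

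Developmental transcription factors were mostly positive, with intervals that included the share of all peaks. Homeobox factors had 16 of 20 positive peaks with a median of 0.65 in the authors' deposited table. CDX2 had 1.48 and 0.34, POU4F1 1.07 and NKX6-1 1.05, and the HOX genes HOXA6, HOXB6, HOXB7 and HOXC6 lay between 0.55 and 0.78 there. The 4 negative peaks belonged to ONECUT2 (-1.22 and -0.74) and ADNP (-0.84 and -0.38) in the authors' deposited table. SOX and forkhead factors had 8 of 9 positive, with FOXA1 at 2.38 and SOX12, FOXC1 and FOXD1 at 1.15, 1.15 and 1.14 in the authors' deposited table. Basic helix-loop-helix and nuclear receptor factors had 9 of 10 positive, with NR2F2 at 1.57, HAND2 at 1.34, ID4 at 1.33 and HAND1 at 1.02 there. In the general machinery of Mediator, Integrator and RNA polymerase, 22 of 31 peaks were positive. MED16 of Mediator had 1.43 and POLR1D, shared by polymerases I and III, 1.19, while POLR2J (-1.80) and CPSF3L (INTS11), the Integrator endonuclease, had negative peaks (-1.05 for the latter) in the authors' deposited table.

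In the WNT pathway 12 of 14 peaks were positive. They included the receptors FZD7 (0.92) and LRP5 (1.37), the scaffold AXIN1 (1.47), the corepressor TLE3 (1.43) and casein kinases (0.30 to 0.95 for CSNK1D, CSNK1E, CSNK1G2 and CSNK1A1) in the authors' deposited table. CTNNB1, beta-catenin, and WLS, which carries WNT ligands to the surface, had -0.63 each there. Receptor tyrosine kinases and ephrins had 6 of 6 positive, with EFNB2 at 1.16, VEGFA, a ligand, at 1.10, and IGF1R at 0.94 in the authors' deposited table. Mitogen-activated protein kinases had 7 of 8 positive, with DUSP1, a phosphatase of these kinases, at 1.27 and MAP3K11 at 1.16, against MAPK14 (p38 alpha) at -1.46 there. In the PI3K, AKT and mTOR pathway 6 of 9 were positive, close to the share of all peaks, among them PIK3R2 (1.37), INPPL1 (1.25) and PDPK1 (1.23), and LAMTOR3 had -0.83 in the authors' deposited table. PP1, PP2A and related phosphatases had 11 of 13 positive, led by PPP4C at 2.46 there. TGF-beta and BMP genes had 3 of 4 positive, TGFB1 (1.45), the BMP antagonist NOG (1.02) and SKI (0.71), with SMAD5 at -0.54 in the authors' deposited table.

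Among regulators of vesicles and cell shape, RAB and ARF GTPases and their regulators had 15 of 18 positive peaks. AGAP2 had 1.52, TBC1D16 1.22 and RAB10 1.00 in the authors' deposited table. The AGAP2 peak shares 282 bases with an AGAP2-AS1 peak on the opposite strand (1.14). Kinesins, dyneins and myosins had 14 of 14 positive (interval 78.5 to 100%), in 9 genes. KIF26A had 1.66, KIF3A 1.13 and KIF1C 0.84 in the authors' deposited table, but 5 of the 14 peaks are the MYH9 peaks described above, so the 14 are not independent. Plexins, semaphorins and axon guidance genes had 6 of 6 positive, with RTN4R, the Nogo receptor, at 1.15 and its ligand RTN4 at 1.06 in the authors' deposited table. Endosome sorting and autophagy genes had 12 of 16 positive, with ATG3, an autophagy conjugating enzyme, at 2.21 and RB1CC1, a scaffold of the autophagy kinase complex, at -0.98 there. Ion channels had 10 of 11 positive, with KCNG1 at 1.55 and 0.68, KCNJ12 at 1.45 and CACNA1H at 1.21, and CLCN3 at -1.24 in the authors' deposited table.

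Cullin-RING substrate receptors had 13 of 32 peaks positive (40.6%, interval 25.5 to 57.7%) in 28 genes, with a median of -0.28 in the authors' deposited table. KLHL7 had -1.79 there, and FBXO11, FBXO21, FBXO33, FBXL4 and FBXL5 lay between -0.65 and -0.52, while FBXL18 (1.72), FBXW5 (1.52) and FBXO46 (1.17) were positive. KCTD12 and KBTBD6 held both signs, positive first in each. RING and TRIM ubiquitin ligases were near the share of all peaks with 14 of 21 positive, with RNF25 at 1.46 and TRIM27 at -1.22 in the authors' deposited table. Nuclear pore and transport genes had 6 of 14 positive. The importins KPNA6 (-1.01), IPO7 (-0.81), IPO8 (-0.44) and KPNA1 (-0.41) and the nucleoporins NUP153 (-0.63 and -0.41), NUPL2 (-0.56) and NUP88 (-0.51) were negative in the authors' deposited table, and the nucleoporin NUP62 had 0.58. The regulators of the RAN GTPase were positive, with 3 peaks of RANGAP1 (0.26, 0.62 and 1.16), RANBP1 (1.01) and RANBP3 (0.78) there. The RANBP1 peak shares 391 bases with a TRMT2A peak on the opposite strand (0.70), so these values cannot be fully told apart.

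In nucleotide and amino acid metabolism 2 of 10 peaks were positive (20%, interval 5.67 to 51.0%), with 1 peak in each of 10 genes. Negative were the purine enzymes GART (-0.34) and PAICS (-0.21), the pyrimidine enzyme UMPS (-0.46), and MTR (-0.49) and MAT2A (-0.28), which make methionine and S-adenosylmethionine, in the authors' deposited table. AMD1, which decarboxylates S-adenosylmethionine for polyamine synthesis, had -0.48, NME6 -0.87 and GOT2 -0.42 there, and TK1, thymidine kinase, had 0.43. Peroxisome and lipid metabolism genes had 7 of 15 positive, from PLA2G4A at -1.30 to PIGQ at 1.44 in the authors' deposited table. Glycosylation and proteoglycan enzymes had 16 of 25 positive and included large values in the first 10% of the gene span, MAN1A1 (2.34), ALG2 (2.30) and XYLT2 (1.79) in the authors' deposited table. B3GAT3 had 1.94 there at 74.5% of its span. Mitochondrial ribosomal proteins had 12 of 19 positive, between -0.55 for MRPL20 and 1.13 for ICT1 (MRPL58) there. Mitochondrial import and fission genes had 9 of 17 positive, with TIMM50 (-0.90) and TIMM23 (-0.86) opposite to TIMM10B (0.87) and the fusion GTPase MFN2 (0.76, with a second peak of -0.27) in the authors' deposited table.

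The other lists were mixed. In mRNA decay and small RNA silencing 9 of 16 peaks were positive, and exosome subunits went both ways, with EXOSC4 at 1.52 and EXOSC3 at -0.82 beside the EXOSC6 peaks in the authors' deposited table. The 3 peaks in cleavage and polyadenylation genes were at PAPOLA, the poly(A) polymerase (-0.51), WDR33, which reads the polyadenylation signal (-0.43), and PABPN1, the nuclear poly(A) binding protein (0.23), in the authors' deposited table. DNA repair and Fanconi anaemia genes had 11 of 18 positive, with the glycosylase NTHL1 at 1.08, the polymerase POLQ at 0.89 and POLK, a translesion polymerase, at -0.79 there. Coat and tethering complexes had 8 of 14 positive, with EXOC7 at 1.5 and USO1 at -1.05 there. J-domain co-chaperones and the list of deubiquitinases and E2 enzymes had 5 of 10 positive each, led by DNAJB1, an HSP40 protein, at 1.43 and UBE2M, which conjugates NEDD8, at 1.80 in the authors' deposited table. Among lists of few peaks, integrins, laminins and collagens had 5 of 5 positive, the Hippo pathway 3 of 3, cadherins 2 of 3, HECT and UBR ligases and ABC transporters 1 of 2 each, and the V-ATPase list 0 of 2. Cohesin, condensin and kinetochore genes had 5 of 8 positive, with NCAPH2 at 1.61 and INCENP at 1.01 and ZWILCH at -0.75 in the authors' deposited table.

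Peak width, the sum of the exon blocks, ran from 57 to 5843 bases with a median of 570, and fold enrichment from 1.14 to 120 with a median of 4.91, in the authors' deposited table. Wider peaks were more enriched (Spearman correlation 0.78 over 2023 peaks, as a description). Among listed peaks they also had smaller changes. The median absolute log2 fold change was 0.87 in the narrowest of 4 bins of about equal size and 0.50 in the widest, and 0.73 and 0.51 in the lowest and highest of 4 such bins of fold enrichment. Both measures and the change come from the same reads. Only peaks that passed the adjusted p limit of 0.05 are listed, and how far that limit shapes this decline was not tested. The positive share was 75.7% in the widest bin (interval 71.8 to 79.2%) and between 61.4% and 65.4% in the other 3. Over the bins of enrichment it was 73.2% in the lowest and between 63.2% and 66.0% in the others.

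**Figure D5:**
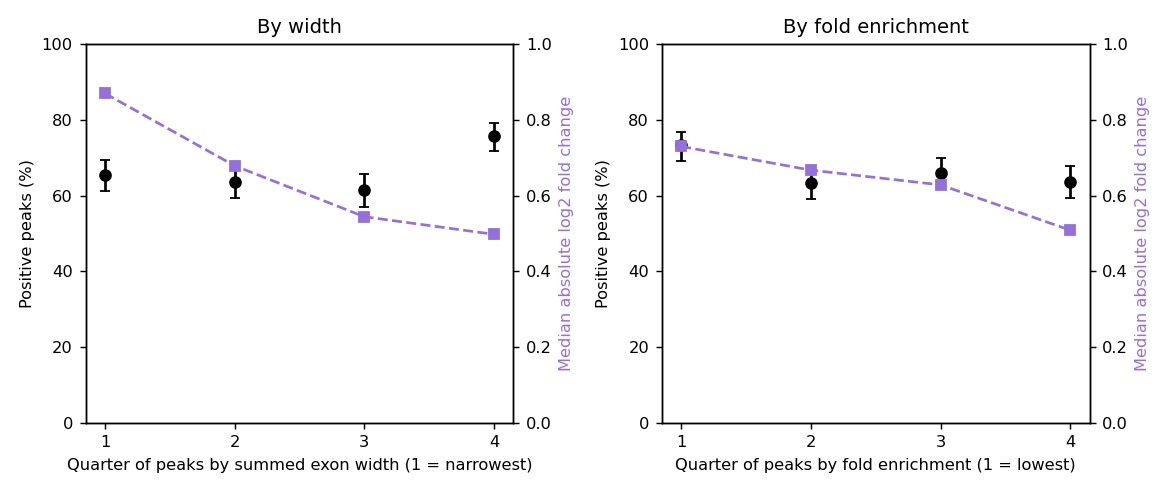
Share of positive peaks (%, black points with 95% Wilson intervals, left axis) and median absolute log2 fold change (purple squares, right axis) in 4 bins of peaks by summed exon width and by fold enrichment. Among these listed peaks, all selected by adjusted p, the size of the change declines from bin 1 to bin 4 of both measures. It goes from 0.87 to 0.50 and from 0.73 to 0.51.

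Over all listed peaks the number of exon blocks was tied to sign more closely than width was. Of 871 peaks within 1 block 56.8% were positive, and of those with 2, 3, 4 and at least 5 blocks 68.3%, 71.8%, 84.2% and 87.0%. Block number also went with position, with a median of 86.2% of the span for 1 block and 55.8% for 4 blocks. In the first 25% of the span the positive share was 89.9% for 1 block and 84.1% for 2 or more. Their intervals overlapped (84.2 to 93.7% and 79.3 to 88.0%). In the last 25% the shares were 44.9% and 68.0%. Positive peaks had up to 12 blocks and negative peaks up to 6. The median width was 597 bases for positive and 539 for negative peaks, and their median intervals overlapped (564 to 630 and 504 to 595). The median enrichment was 4.70 for positive and 5.43 for negative peaks (intervals 4.38 to 5.06 and 4.80 to 5.94). Both differences depended on the peaks taken. The width difference of 58 bases was 118 at an adjusted p of at most 0.01 and 225.5 at an enrichment of at least 4, and the enrichment difference of -0.74 turned to 0.02 and 0.035 under these settings.

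All 8 of the widest peaks drawn were positive, with values from 0.21 to 0.68. MKI67, the Ki-67 protein of mitotic chromosomes, had a 5843-base peak with 0.26 in the authors' deposited table, ZNF646 5668 bases with 0.42, and TNKS1BP1, a tankyrase-binding protein, 5580 bases over 11 blocks with 0.27. AHDC1 had the highest value of the 8 (0.68) and SH3PXD2A the lowest (0.21) there. The narrowest peak, 57 bases at ATP5I (ATP5ME), an ATP synthase subunit, had -0.33 and an enrichment of 1.40 in the authors' deposited table. Others drawn, of 60 or 61 bases, at UBE2F-SCLY, MAP7D1, NOC2L, PODXL2 and CTBP1-AS, had 1.11 to 1.51 with enrichments of 1.19 to 1.53 there, and those of HDLBP and PFN1 had 0.51 and 3.23. Not all peaks of this width were positive, as USO1 had -1.05 over 61 bases in the authors' deposited table. The highest enrichments were at HSPA1A (120), PKD1 (57.0), TMEM121 (53.7), ZNF316 (53.2) and IRF2BP1 (49.9) in the authors' deposited table, all positive (0.69 to 1.45). TPBG, an oncofetal membrane glycoprotein, was negative at an enrichment of 39.4 (-0.57). HSPA1A, PKD1 and FAM72D have near-identical copies, which makes their values uncertain.

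Of 45 peaks in long noncoding RNAs of RefSeq 24 were positive (53.3%, interval 39.1 to 67.1%), a range that includes the 66.9% of the 1947 peaks in protein-coding genes. The 5 negative XIST peaks are among the 45, so the 45 are not independent. In the list of LINC and antisense RNAs LINC00242 had -1.69, UBA6-AS1 (UBA6-DT) -1.15 and SMARCA5-AS1 1.66 and 1.13 in the authors' deposited table. Many of these values cannot be told from those of an overlapping gene. In 65 pairs, listed peaks of differently named genes shared bases, 32 pairs on opposite strands and 33 on the same strand, and the sign was equal in all 65. Over 511 shared bases TSIX had -0.56 and XIST -0.55 in the authors' deposited table. Likewise SMARCA5-AS1 and SMARCA5 had 1.66 and 1.68, LINC00094 and BRD3 -1.02 and -1.01, and PINK1-AS and PINK1 -0.48 and -0.48 there. Other pairs on opposite strands were unequal in size. CCDC42B and DDX54 had 1.48 and 0.58, and EMC6 and P2RX5-TAX1BP3 had 1.14 and 2.20 in the authors' deposited table. The library kit marks strand, and whether the counting used it is not stated in the labels.

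Mature miRNAs lay inside 3 listed peaks, and their sequences are given to show what those intervals hold (RefSeq, GRCh38.p14, seed of bases 2 to 8 in capitals). They share no seed.
hsa-miR-3652: cGGCUGGAggugugagga
hsa-miR-1181: cCGUCGCCgccacccgagccg

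The first lies at chr12:103930425-103930442 within a peak of HSP90B1, a chaperone of the endoplasmic reticulum (0.43), and also within a peak listed under MIR3652 itself (1.59) in the authors' deposited table, the latter 131 bases wide. The second lies at chr19:10403505-10403525 within a peak of CDC37, a kinase cochaperone (0.29 in the authors' deposited table). The RNA was polyadenylated, and values at these places describe longer transcripts and not the mature miRNAs.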

How the data were processed

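HEK293T cells were profiled by m6A-seq after TRMT10A or control siRNA, with 2 pulldown and 2 input samples each. Build hg38 and DESeq2, with no version or role, are named per the submitters' processing notes. Names of the aligner and peak caller are not given in the sources used here. Values were made by the authors, who deposited 1 list of differential peaks with a log2 fold change, a fold enrichment (a ratio of pulldown over input) and exon blocks, per the file headers. The logarithms of p-values in the deposited list are treated as a score, since some are minus infinity. The largest adjusted p is 0.0501. Depth per sample is unknown, so the precision of single values cannot be given.

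Gene names were matched to RefSeq GRCh38.p14 (1890 peaks by current symbol, 116 by an older symbol, 17 not matched). Peaks were counted by sign, position, width and gene list, with 95% Wilson intervals for shares and order-statistic intervals for medians, which cover counting error only. No test was run, because the list holds no values per library. Steps were checked on simulated data. The tools were matplotlib 3.10.9, numpy 2.4.6, scipy 1.17.1 and pandas 2.3.3 under Python 3.11.15.

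The genes, lists and alternatives were chosen with earlier results of these data known, and the comparison by position after seeing the list. Genes were named by rule, leaving out those already described in an earlier account. Named were the 10 largest values of each sign at positions listed once and up to 4 members per gene list. The 8 widest, narrowest and most enriched peaks and the 5 lowest differential p of each sign were also named. Among genes with several peaks, those with at least 4, the 8 largest of 1 sign and the 8 widest gaps between signs were named. Results of some genes and of 1 gene list are not reported here. Further list members, overlapping pairs and exceptions were named after their values were seen. Settings tried were an adjusted p of at most 0.01, an absolute log2 value of at least 1, a fold enrichment of at least 4, repeated positions left out, 1 peak per gene, 1-block peaks, genomic span or centre, genes already described or peaks shared with another gene left out, and peaks at least 200 bases apart.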

Additional observations from a re-analysis of the deposited data

How the results depend on the processing

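Of 56 alternative values for 9 results, 40 stayed within the interval of the reported value, or within 1.5 times a reported count. The difference in positive share between the first and last 25% of the gene span, 29.7 percentage points, stayed between 25.2 and 32.4 under 8 settings and was 44.95 among 1-block peaks. These settings were chosen after seeing the data. Of genes whose end peaks differ in sign, 91.3% were positive first, and 75% of 12 such genes at a fold enrichment of at least 4. The overall positive share of 66.5% was 68.9% at an adjusted p of at most 0.01, 81.7% at an absolute log2 value of at least 1 and 64.3% at an enrichment of at least 4. The median absolute log2 fold change, 0.63, was 1.31 and 0.57 under the last 2 of these. The 77.9% of multi-peak genes with 1 sign became 87.0%, and the 70.9% with the larger value upstream became 56.5%, for the 23 genes left at an absolute log2 value of at least 1. The width difference of 58 bases between positive and negative medians was 118 at an adjusted p of at most 0.01, 225.5 at an enrichment of at least 4, 116.5 with 1 peak per gene and 836 by genomic span, which counts introns. The enrichment difference of -0.74 reversed to 0.02 at an adjusted p of at most 0.01, 0.41 at an absolute log2 value of at least 1 and 0.035 at an enrichment of at least 4. The cause of these shifts was not tested, apart from the filters leaving fewer peaks.

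No paired analysis was possible because the columns carry no values of single libraries, and for the same reason no value exists without a given replicate. Unlisted peaks are not analysed here, so a share describes the list and not all methylated sites. Position in the gene span depends on the annotated span and counts introns, and it is not a position in the mature mRNA. A change in a listed value cannot be split between pulldown and input.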
